A study of Homo sapiens with 6 samples.

Results

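The E2F transcription factors and the RB pocket proteins that bind them were followed in RNA-seq counts of HCT116 cells, a human colorectal carcinoma line, with and without a knockout of METTL3, the catalytic subunit of the m6A mRNA methyltransferase. The members were taken by gene symbol: E2F1, E2F2, E2F3, E2F4, E2F5, E2F7, E2F8, RB1, RBL1 and RBL2, which are 10 of the 56638 symbols counted. All 10 were among the 22452 genes with enough counts to be tested. The WT group held 3 samples labelled wild type, and the METTL3-KO group held 3 samples labelled as METTL3 knockout, which the study's methods describe as a monoclonal line edited with a lentiviral CRISPR/Cas9 vector. Both groups are the same cell line, grown in McCoy's 5a medium with fetal bovine serum, and no drug or time course separates them. With 1 knockout clone, loss of METTL3 and a feature of that clone cannot be told apart. The deposited names call the groups NC and SiM3, which the labels do not explain and which leave in doubt whether these samples came from the knockout clone or from an siRNA knockdown. The labels were followed here. Whether the samples of a group came from separate cultures is not stated, so p-values measure the spread between these samples, which may be technical.

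E2F proteins bind short GC-rich words in promoters, most of them as dimers with a DP partner, and set the transcription of genes for DNA replication and the cell cycle. E2F1, E2F2 and E2F3 are classed as activators, E2F4 and E2F5 as canonical repressors, and E2F7 and E2F8 as atypical repressors that bind DNA without a DP partner. RB1 and its relatives RBL1 (p107) and RBL2 (p130) hold E2F proteins in repressive complexes until cyclin-dependent kinases phosphorylate them. RB1 mainly binds the activators, whereas RBL1 and RBL2 mainly bind E2F4 and E2F5 and join the MuvB proteins in the DREAM complex. HCT116 is a proliferating line that expresses RB1. In bulk RNA, fewer cells in a phase of the cycle and less RNA per cell cannot be told apart.

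Each sample held between 20936091 and 30142144 gene counts, and levels are given below as CPM, counts scaled to a common library size. METTL3 itself stood at 30.6, 30.2 and 29.2 CPM in WT and at 7.26, 7.69 and 6.89 CPM in METTL3-KO, so 24.3% of its mRNA level remained. Epithelial markers were present, with a summed level of 5798 to 9248 CPM for the 7 genes listed, and 4 of the 7 rose (KRT8, KRT19, CDH1 and VIL1) where 13.4% of all tested genes did. With the third samples left out, 4 passed as higher and 2 as lower, where 44.2% of all tested genes passed in either direction. Of 8 marker genes of blood, endothelial and stromal cells, 4 were tested, and these summed to 5.58 to 9.01 CPM. Most of this was the stromal gene COL1A1, at 4.69 to 7.87 CPM and higher in METTL3-KO without overlap. PECAM1 and COL3A1 had 0 counts in every sample, and none of the 4 tested genes passed. The third sample of each group stood apart. The chi-square distance per gene was 2.44 between WT samples 1 and 2 but 20.8 and 20.7 to WT sample 3, and 2.23 between METTL3-KO samples 1 and 2 but 10.1 and 7.61 to METTL3-KO sample 3. Deviations from the group mean followed transcript length, with Spearman's rho across 9455 genes of 0.663 in WT sample 3 and −0.602 in METTL3-KO sample 3. It was of the opposite sign in the other samples of each group, at −0.601 and −0.548 in WT and 0.503 and 0.417 in METTL3-KO. These values describe genes and not replicates. Results are therefore given with the third samples and, where it matters, without them. The fit without them compares WT samples 1 and 2 with METTL3-KO samples 1 and 2, whose length deviations had opposite signs. In that fit a difference that follows transcript length cannot be told apart from the group difference. Its p-values rest on 2 samples per group that lie close together, so it is not a cleaner comparison. The part of transcript length in any result was not tested beyond a correction for length and GC content.

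Several E2F and RB family genes carry E2F words in their own promoters, so stretches of the proximal promoters are shown to set the members' regulatory sequence beside their levels. The windows are RefSeq sequences of GRCh38.p14 reaching 250 bases upstream and 50 bases downstream of the start, and 8 of the 10 members had one, with no window for E2F5 and E2F8. The words searched on both strands were TTTCCCGC, TTTCGCGC, TTTGCCGC and TTTGGCGC, which 3.31% of 35116 windows hold, and the same words without the first T, which overlap them by construction and which 13.0% of windows hold. Capitals mark a word on either strand, in its full form or without the first T.
E2F1, chr20:33686386-33686445, minus strand: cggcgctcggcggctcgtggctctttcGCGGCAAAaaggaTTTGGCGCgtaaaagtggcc
E2F2, chr1:23531253-23531312, minus strand: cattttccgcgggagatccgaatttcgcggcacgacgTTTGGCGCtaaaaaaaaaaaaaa
E2F3, chr6:20401819-20401878, plus strand: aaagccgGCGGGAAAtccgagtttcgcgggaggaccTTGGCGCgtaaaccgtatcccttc
E2F7, chr12:77065681-77065750, minus strand: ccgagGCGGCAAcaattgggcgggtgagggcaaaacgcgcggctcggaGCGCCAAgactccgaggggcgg
RBL1, chr20:37095998-37096057, minus strand: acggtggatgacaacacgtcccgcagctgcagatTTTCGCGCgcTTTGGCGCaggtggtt
Full words were found in the windows of all 3 activators and of RBL1: 2 in E2F1, 1 in E2F2, 1 in E2F3 and 2 in RBL1. E2F7 held only the shorter form, in 2 places. No full or shorter word lay in the windows of E2F4, RBL2 or RB1, and the RB1 window lies inside the gene rather than at its RefSeq start. These are matches of letters and not measured binding sites.

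Against this background, 5 of the 10 members passed edgeR's quasi-likelihood test at an adjusted p under 0.05, where 26.8% of all tested genes did. E2F5, E2F7, RB1 and RBL1 fell in METTL3-KO, which is 4 of 10 where 13.4% of tested genes fell. RBL2 rose, which is 1 of 10 where 13.4% of tested genes rose. The 3 activators, E2F4 and E2F8 did not pass. The median log2 fold change was −0.30 over the members and −0.02 over all tested genes. In 7 of the 10 members the CPM values of the groups did not overlap, 6 lower and 1 higher in METTL3-KO, against 40.9% of tested genes. Without the third samples, 44.2% of 21242 tested genes passed, and 6 members fell and 2 rose, E2F1 and E2F4 joining those that fell and E2F3 the one that rose.

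**Figure D1:**
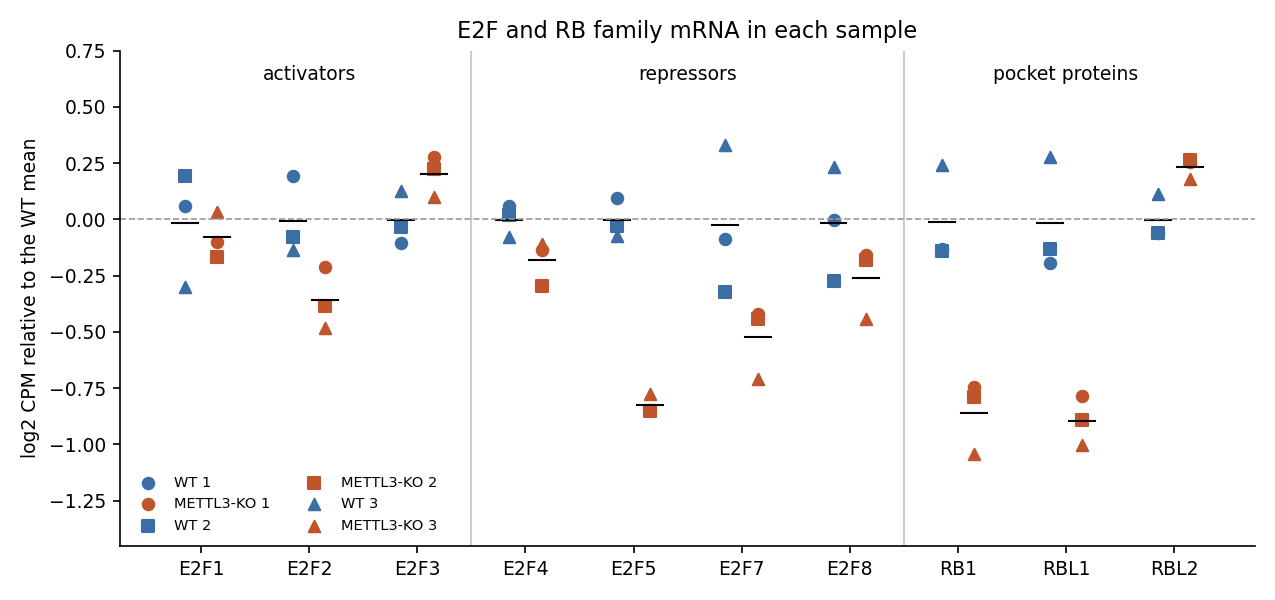
Log2 CPM of the 10 members relative to each gene's WT mean, with 1 point per sample (WT and METTL3-KO, 3 each). The third sample of each group is marked apart. The METTL3-KO points of E2F5, RB1 and RBL1 sit well under all WT points and those of RBL2 above them, while the groups of E2F1, E2F3 and E2F8 overlap.

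E2F1, the activator tied most closely to S-phase entry and able to drive apoptosis, stood at 32.7, 35.9 and 25.5 CPM in WT and at 29.3, 27.9 and 32.1 CPM in METTL3-KO. The METTL3-KO values lay inside the WT range. The log2 fold change was −0.08 (SE 0.118, edgeR adjusted p = 0.668). WT sample 3 was the lowest WT value, and without the third samples the log2 fold change was −0.26 (edgeR adjusted p = 0.00234). The call for E2F1 thus depends on whether the third samples are used, and the fit without them has the limit given above.

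E2F2, an activator with a small share of the E2F mRNA, was at 4.48, 3.72 and 3.56 CPM in WT and at 3.38, 3.003 and 2.81 CPM in METTL3-KO. All METTL3-KO samples were lower than all WT samples, by a small margin and on only 66 to 123 counts each. The log2 fold change of −0.36 did not pass (SE 0.155, edgeR adjusted p = 0.115).

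E2F3, an activator that is also needed for normal proliferation, was at 30.9, 32.4 and 36.3 CPM in WT and at 40.3, 38.8 and 35.6 CPM in METTL3-KO. WT sample 3 exceeded METTL3-KO sample 3, and the other METTL3-KO samples lay above all of WT. E2F3 did not pass with all samples (log2 fold change 0.21, SE 0.0879, edgeR adjusted p = 0.109). It passed without the third samples (0.32, edgeR adjusted p = 9.75e-05) and after correction for transcript length and GC content (0.18, edgeR adjusted p = 0.0478). No activator passed with all samples, and the 3 did not share a sign.

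Of the canonical repressors, E2F4, the main E2F of quiescent cells and a DREAM subunit, was the most abundant E2F. Its level was 123.8, 120.4 and 112.5 CPM in WT and 108.2, 96.7 and 110.1 CPM in METTL3-KO. Every METTL3-KO sample was lower than every WT sample, with WT sample 3 and METTL3-KO sample 3 only a little apart. The log2 fold change of −0.18 did not pass (SE 0.0765, edgeR adjusted p = 0.109), but E2F4 passed after the length and GC correction (edgeR adjusted p = 0.0210) and without the third samples (−0.25, edgeR adjusted p = 9.90e-05).

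E2F5, the other canonical repressor and a partner of RBL2, fell to 56.5% of its WT level. It was at 26.6, 24.3 and 23.6 CPM in WT and at 13.8, 13.8 and 14.5 CPM in METTL3-KO. The 2 groups were far apart and each was tight, the third samples included. The log2 fold change was −0.82 (SE 0.0866, edgeR adjusted p = 5.59e-05), and −0.89 without the third samples. On GRCh37 the gene spans 86089389 to 86129387 on the plus strand of its chromosome, and opposite-strand genes overlap 18.8% of its exon bases. The study's methods give HTSeq counting in union mode but no strand setting, so how the overlap affects the E2F5 count is not known.

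The atypical repressor E2F7, which represses E2F1 and other S-phase genes, stood at 18.4, 15.6 and 24.5 CPM in WT and at 14.6, 14.3 and 11.9 CPM in METTL3-KO, with no overlap and with the third sample at the outer edge of each group. It fell to 70.1% of WT (log2 fold change −0.51, SE 0.152, edgeR adjusted p = 0.0278). Without the third samples the log2 fold change was −0.24 (edgeR adjusted p = 0.0322), and without WT sample 3 alone it was −0.32. E2F7 passed in 2 of the 6 fits that each left out 1 sample.

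E2F8, which dimerises with E2F7, was at 14.4, 11.9 and 17.0 CPM in WT and at 12.9, 12.7 and 10.6 CPM in METTL3-KO. The groups overlapped, since WT sample 2 lay below 2 METTL3-KO samples. The log2 fold change was −0.25 (SE 0.133, edgeR adjusted p = 0.195), and −0.05 without the third samples (edgeR adjusted p = 0.725).

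**Figure D2:**
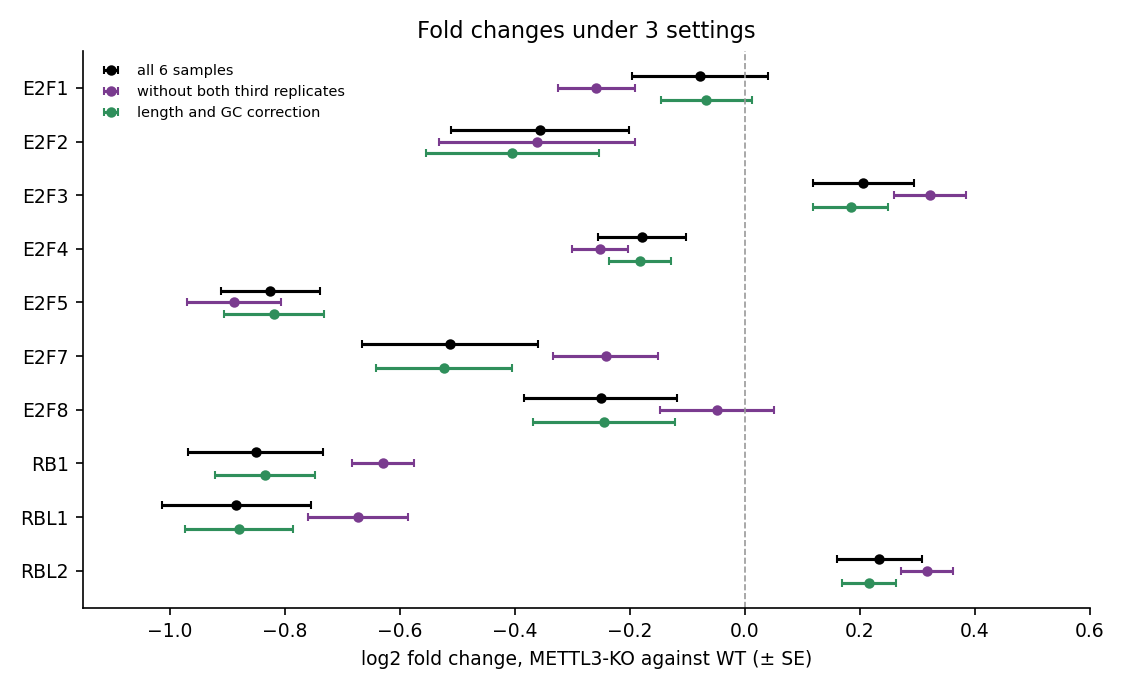
Log2 fold change, METTL3-KO against WT, of each member ordered by role, with bars of 1 SE. The settings are all 6 samples, without the third samples, and after the length and GC correction. E2F5, RB1 and RBL1 lie between −0.82 and −0.88 with all samples, RBL2 lies at 0.23, and the estimate for E2F7 moves from −0.51 to −0.24 without the third samples.

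Set against each other within a sample, activators stood higher relative to canonical repressors in METTL3-KO. The mean log2 CPM of E2F1, E2F2 and E2F3 minus that of E2F4 and E2F5 was −1.785, −1.722 and −1.783 in WT and −1.278, −1.291 and −1.427 in METTL3-KO. The groups did not overlap and differed by 0.432, or by 0.469 without the third samples. Of the 5 genes in these means, E2F5 alone passed the test with all samples. No p is given, because the members were chosen with results of these data known.

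The same difference against E2F7 and E2F8 was 0.029, 0.260 and −0.447 in WT and 0.213, 0.139 and 0.396 in METTL3-KO. These groups overlapped, and WT sample 3 was the lowest value. The difference of the means was 0.302 with all samples and 0.032 without the third samples. Against all 4 repressors it was 0.367, or 0.250 without the third samples.

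**Figure D3:**
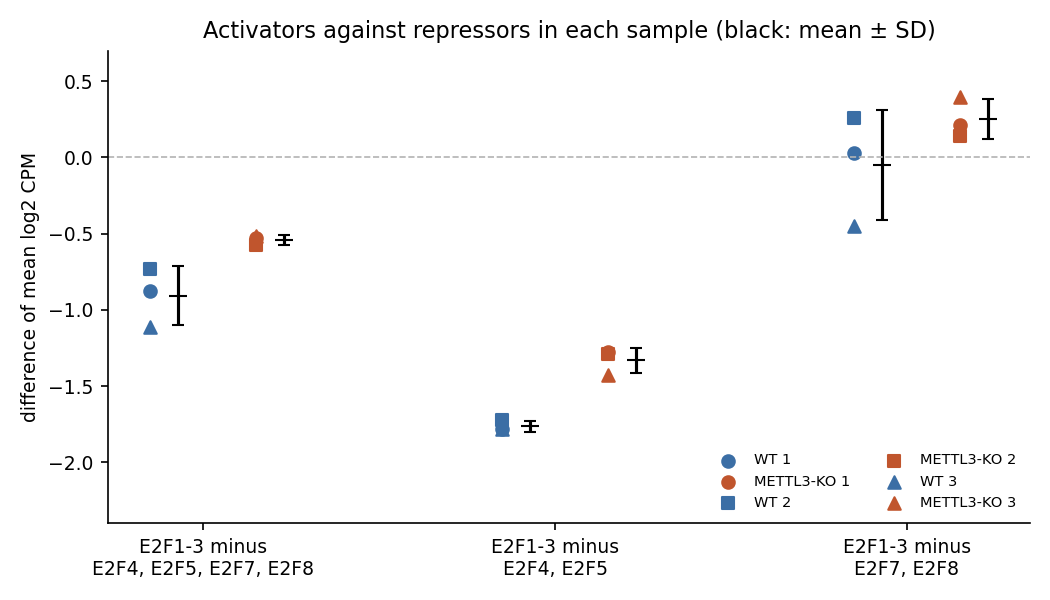
Mean log2 CPM of the activators minus that of all, canonical and atypical repressors, with 1 point per sample and the mean ± SD of each group in black. The groups are separate for the canonical repressors (mean −1.763 in WT and −1.332 in METTL3-KO) and overlap for the atypical repressors.

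Among the pocket proteins, RB1 and RBL1 fell and RBL2 rose. RB1, the tumour suppressor that restrains the activators, was at 68.0, 67.6 and 88.1 CPM in WT and at 44.6, 43.1 and 36.2 CPM in METTL3-KO. All METTL3-KO values lay well below WT, and the third samples were the most extreme of their groups. RB1 fell to 55.5% of WT (log2 fold change −0.85, SE 0.117, edgeR adjusted p = 0.000318). Without the third samples it still passed, at −0.63 (edgeR adjusted p = 1.37e-10). On GRCh37 RB1 lies at chr13:48877880-49173572 on the plus strand.

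RBL1, which binds E2F4 in cycling cells, was at 18.8, 19.6 and 26.0 CPM in WT and at 12.4, 11.6 and 10.7 CPM in METTL3-KO. As for RB1, the groups were apart and the third samples were the outermost. RBL1 fell to 54.2% of WT (log2 fold change −0.88, SE 0.129, edgeR adjusted p = 0.00048), and by 0.67 on the log2 scale without the third samples. RBL1 lies at chr20:35624752-35724400 on the minus strand of GRCh37, and its promoter holds the 2 full E2F words shown above.

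RBL2, the pocket protein of the DREAM complex in resting cells, was at 102.3, 102.5 and 115.3 CPM in WT and at 127.4, 128.2 and 120.8 CPM in METTL3-KO. The METTL3-KO values were all higher, with the third samples the closest to the other group. RBL2 rose to 117.6% of WT (log2 fold change 0.23, SE 0.0740, edgeR adjusted p = 0.0367). It was at 0.32 without the third samples (edgeR adjusted p = 1.06e-06), but it passed in only 2 of the 6 fits that each left out 1 sample. RBL2 lies at chr16:53467889-53525560 on the plus strand of GRCh37, and AKTIP and another opposite-strand gene overlap 16.4% of its exon bases. E2F5, RB1 and RBL1 passed in all 6 fits that left out 1 sample, with log2 fold changes of −0.86 to −0.77, −0.91 to −0.71 and −0.97 to −0.72.

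RBL2 made up more of the pocket protein mRNA in METTL3-KO than in WT. Per kilobase of exon, RBL2 made up 47.9%, 47.8% and 44.04% of the summed level of the 3 genes in WT and 63.6%, 64.6% and 66.7% in METTL3-KO. RB1 made up 40.1%, 39.7% and 42.4% in WT and 28.0%, 27.4% and 25.2% in METTL3-KO. The share of RBL1 went from 12.7% ± 0.788 to 8.15% ± 0.266 (SD, n = 3). None of these shares overlapped between groups. The summed level went from 28.4 ± 3.40 to 23.8 ± 1.32 CPM per kilobase, also without overlap. By sample it was 26.3, 26.4 and 32.3 in WT and 24.7, 24.45 and 22.3 in METTL3-KO. The third samples were the outermost, so the other samples lay closer together than the means. The 3 mRNAs together were thus lower while RBL2 alone was higher. Within a sample, log2 CPM of RBL2 minus that of RB1 went from a mean of 0.526 in WT to 1.607 in METTL3-KO, and that of RBL2 minus RBL1 from 2.323 to 3.431.

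**Figure D4:**
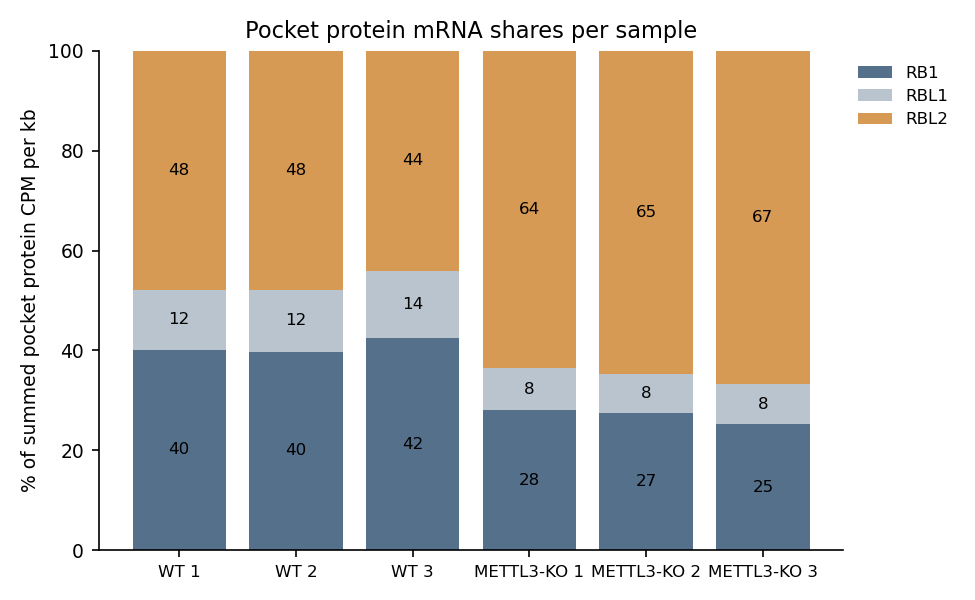
Percent of the summed CPM per kilobase of RB1, RBL1 and RBL2 that each gene makes up, 1 bar per sample. RBL2 takes 44.04% to 47.9% in WT and 63.6% to 66.7% in METTL3-KO.

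Compared per kilobase of exon, the level of the members in WT ran from 33.1 CPM for E2F4 to 0.718 CPM for E2F2, a 46.1-fold span. RBL2 (13.2), E2F1 (11.7) and RB1 (11.6) followed E2F4, and neighbours among these 3 overlapped in their WT ranges. E2F3 came next at 6.40, separate from RB1 above it and from E2F5 below it. E2F5 (4.14), RBL1 (3.60), E2F8 (3.49) and E2F7 (3.10) followed, and each overlapped with the next. In METTL3-KO, the genes E2F4, RBL2 and E2F1 kept the first 3 places. The ranges of E2F3 and RB1 overlapped there, as did those of E2F5 and E2F7 and those of RBL1 and E2F7, so their order is not read. Among E2F mRNAs alone, E2F4 took 52.8% in WT and 52.5% in METTL3-KO with overlapping samples, E2F5 went from 6.62% to 4.22%, and E2F3 from 10.3% to 13.3%, the last 2 without overlap. The order depends on the exon length used, since with the longest transcript RB1 stood above E2F1 in WT.

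Genes most like RBL1 and RBL2 were sought by the root mean square distance of log2 CPM, each centred on its own mean, over 6 samples and 12831 genes. PAQR3 (0.0384), MLTK (0.0446) and RB1 (0.0522) lay nearest to RBL1. RABL3 (0.0155), ERBB3 (0.0162) and MAP7 (0.0192) lay nearest to RBL2.

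The DP partners and E2F6 gave opposite calls. TFDP1, the main DP partner of the E2Fs, rose from 206 to 260.5 CPM (log2 fold change 0.34, edgeR adjusted p = 0.00285). E2F6, a repressor without a pocket-binding region, fell (−0.35, edgeR adjusted p = 0.0136) but passed in only 3 of the 6 fits that each left out 1 sample, and TFDP2 did not pass (−0.05, edgeR adjusted p = 0.702). TFDP3 was not tested.

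In the MuvB list, with its MYB, FOXM1 and kinase partners, 2 of 9 genes fell and 0 rose, where 13.4% of all tested genes fell, with a median log2 fold change of −0.21 against −0.02 over all genes. Without the third samples 4 fell, where 44.2% of all tested genes passed in either direction. With all samples the 2 were LIN52 (−0.65), the subunit through which MuvB meets the pocket protein, and MYBL1 (−0.74, edgeR adjusted p = 0.0489). MYBL1 passed in 1 of the 6 fits that left out 1 sample and did not pass without the third samples (edgeR adjusted p = 0.105). FOXM1 stood at −0.21 and LIN54 at −0.26, and neither passed (edgeR adjusted p = 0.0828 and 0.134), but both did after the length and GC correction (0.0458 and 0.0259), and FOXM1 did without the third samples (0.0361). Of 14 chromatin corepressors that RB family proteins bind, DNMT1 (−0.63) and SUV39H1 (−0.36), a histone H3 lysine methyltransferase, fell and HDAC1 rose (0.46), and the median of the list was −0.12. These 2 lower and 1 higher of 14 are near the 13.4% of all tested genes in each direction. Without the third samples 5 fell and 3 rose, where 44.2% of all tested genes passed in either direction. SUV39H1 passed in 2 of the 6 fits that left out 1 sample. RBBP7 did not pass with all samples (−0.18, edgeR adjusted p = 0.0684).

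Of the cyclins and kinases that phosphorylate pocket proteins, 3 of 10 tested genes fell and 2 rose, against 13.4% of all tested genes each way, with a median of −0.04. The kinases CDK4 (−0.64, edgeR adjusted p = 0.000105) and CDK2 (−0.53) fell, as did the cyclin gene CCNA2 (−0.265), named after its value was seen. The cyclin genes CCND1 (0.39) and CCNC (0.34) rose. CCND2 was not tested. Among the 7 CDK inhibitors, CDKN2B (0.94), a CDK4 and CDK6 inhibitor, and CDKN1A (0.83), which encodes p21, rose. CDKN1C (−0.73) and CDKN2C (−0.36) fell, the latter in only 2 of the 6 fits that left out 1 sample and not by DESeq2 (adjusted p = 0.0769). The list's median was 0.15, but −0.0024 without the third samples, and its 2 calls each way stand against 13.4% of all tested genes. In the list of ubiquitin ligase subunits and other direct regulators of E2F proteins, 4 of 10 fell and 2 rose, against 13.4% of all tested genes each way, with a median of −0.16. Leaving out the third samples gave 7 that fell and 2 that rose, where 44.2% of all tested genes passed in either direction. CHEK1 (−1.01), CCNF (−0.59), the cyclin of a ubiquitin ligase that acts on E2F proteins, and USP11 (−0.40) were among those that fell, and SERTAD1 (0.55) among those that rose.

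Among 36 genes listed here as S-phase targets of E2F, 28 fell and 0 rose, against 13.4% of tested genes in each direction. Their median log2 fold change was −0.50 against −0.02 over all genes, and 35 of the 36 lay below 0, the exception being CCNE1 at 0.17, which was named after its value was seen. TYMS (−1.02), CHEK1 (−1.01), LIG1 (−0.85) and CDK1 (−0.75) had the smallest p. The summed level of the 36 was 3280, 3209 and 3228 CPM in WT and 2253, 2192 and 2193 CPM in METTL3-KO. Both groups were tight and far apart. Without the third samples 33 fell and 0 rose, where 44.2% of all tested genes passed in either direction. The list shares 6 genes with the other lists, CHEK1 and DNMT1 among them.

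**Figure D5:**
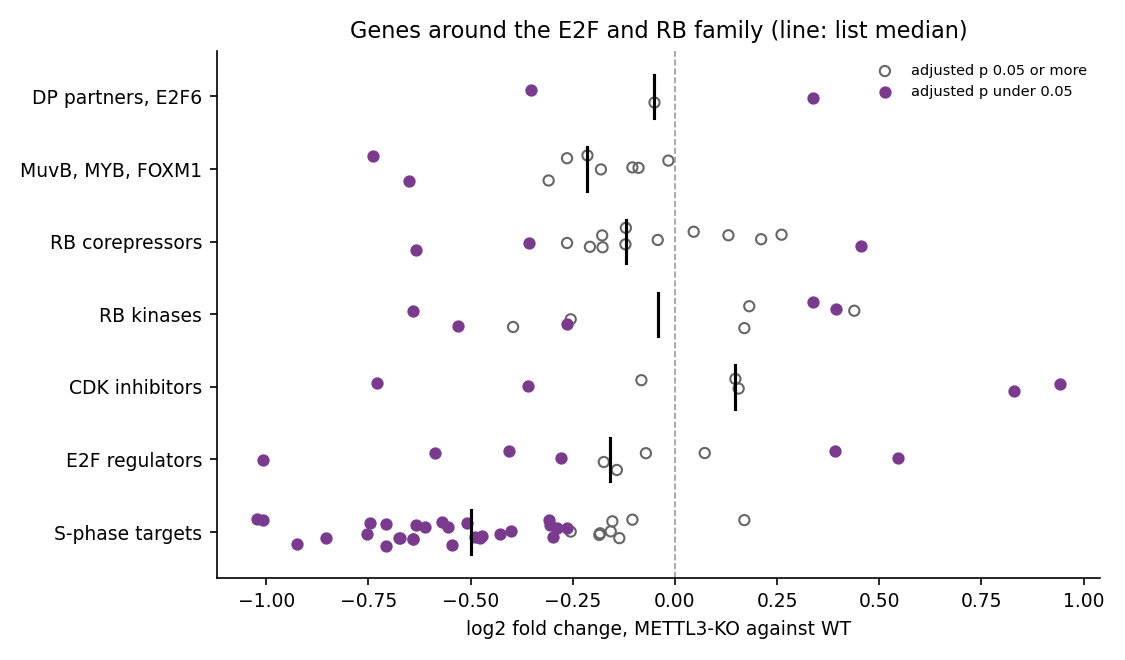
Log2 fold change, METTL3-KO against WT, of each tested gene in the 7 pathway lists, with 1 point per gene, filled where edgeR's adjusted p is under 0.05, and a bar at the list's median. The S-phase targets have a median of −0.50, and the other 6 lists have medians from −0.21 to 0.15.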

How the data were processed

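RNA-seq of 3 WT and 3 METTL3-KO HCT116 samples was analysed, grouped by the submitters' labels; the deposited names number the WT samples differently, and label numbers were used. Read pairs were aligned by the authors to hg19 (TopHat2 2.0.11 per the submitters' processing notes), and the deposited values are raw HTSeq counts by gene symbol, not normalized. HTSeq's rows for unassigned reads held between 28.2% and 30.7% of all counts, these rows included, and were left out. A gene was kept if its counts in either group summed to at least 5. Groups were compared by edgeR's quasi-likelihood test (version 4.0.16, R 4.3.3) with TMM scaling, two-sided, Benjamini-Hochberg over 22452 genes, threshold 0.05. Lengths came from GENCODE v44 on GRCh37, which matched 33872 symbols, and promoters from RefSeq on GRCh38.p14. Named genes were METTL3, the members, all DP partners and E2F6, and the 4 genes of smallest p per other list. The members and lists were chosen with earlier results of these data known. Alternatives were DESeq2 1.42.0, RLE, other count filters, the replicate number as a block, a length and GC correction (splines, 5 degrees of freedom), single samples left out and the third samples left out. The fit was tested on simulated data. Results of 1 further gene list are not reported here.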

Additional observations from a re-analysis of the deposited data

How the results depend on the processing

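Under RLE scaling, other count filters, DESeq2 and an older quasi-likelihood method chosen after seeing the data, 5 members were changed, as with the reported settings. Without the third samples 9383 genes were changed instead of 6019 (4810 lower and 4573 higher), and 8 members (2 higher). The length and GC correction gave 7592 genes changed and 7 members, 5 lower with E2F4 joining and 2 higher, RBL2 and E2F3. Leaving out 1 sample in turn gave 4213 to 7627 genes changed, 1975 to 3820 lower and 2213 to 3807 higher, 3 to 7 members changed and 0 to 2 members higher. Without E2F2 the difference between activators and canonical repressors was 0.570 instead of 0.432. E2F1 changed sign without WT replicate 2, with a log2 fold change from −0.200 to 0.038 over the samples left out (−0.258 and past the threshold without the third samples), and TFDP2 without WT replicate 3, from −0.099 to 0.001; neither passed the test where the sign changed, and the cause was not tested. Of 150 settings over the members, 132 kept direction and side of the threshold, 10 lost the call, 7 gained it and 1 changed sign. Same-numbered samples of the groups did not deviate together (correlations −0.586, −0.390 and −0.784), so the numbers are not taken to pair the samples. METTL3-KO sample 3 deviated with WT samples 1 and 2 (0.719 and 0.632). WT sample 3 deviated with METTL3-KO samples 1 and 2 (0.657 and 0.505). WT sample 2 with METTL3-KO sample 1 gave −0.5465, and WT sample 1 with METTL3-KO sample 2 gave −0.482. Deviations sum to 0 within a group, so these correlations are not independent, and a crossed grouping of the samples was not tested. With the replicate block 3276 genes were changed (1582 lower, 1694 higher), and 3 members (0 higher), namely E2F5, RB1 and RBL1 (edgeR adjusted p = 0.0054, 0.013 and 0.012). Depth limits E2F2 most, at 66 to 123 counts per sample.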
